A study of Homo sapiens with 9 samples.

Results

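The comparison described here is TRMT12 siRNA 1 against control siRNA in SKbr3 cells, an established human breast cancer line in which the receptor tyrosine kinase gene ERBB2 is amplified. It comprised 3 of the 9 two-colour arrays of the study, chosen because their labels name siRNA 1; the other 6 arrays carried siRNA 2 or siRNA 3 against control siRNA, 3 arrays each. On every array, RNA from SKbr3 cells given a TRMT12 siRNA was hybridised together with RNA from SKbr3 cells given control siRNA, so both sides of each ratio came from the same line and both had received an siRNA. The knockdown RNA of siRNA 1 carried Cy5 on arrays 1 and 2 and Cy3 on array 3, the dye-swapped array. The series text describes one control siRNA throughout, but each control carries its siRNA's number in the sample labels, which leaves unsettled whether the siRNAs shared control RNA. The labels do not give the dose or the time of siRNA treatment, and they do not say whether the 3 arrays came from separate cultures. The p-values below therefore cover the spread from one hybridisation to another, which may be technical.

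TRMT12, whose current symbol is TYW2, encodes an enzyme of wybutosine synthesis. Wybutosine is a bulky modified guanosine next to the anticodon of phenylalanine transfer RNA, where it stabilises codon pairing and helps the ribosome keep its reading frame. TYW2 transfers an aminocarboxypropyl group from S-adenosylmethionine to the precursor base, after TRMT5 has methylated the guanosine and TYW1 has built the tricyclic core. The gene is among those gained in breast cancers with extra copies of the long arm of its chromosome.

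Each value below is the log2 ratio of knockdown over control intensity for a spotted oligonucleotide probe, adjusted for the intensity-dependent dye trend of its array by loess. The estimate for siRNA 1 comes from limma, fitted to all 9 arrays with a dye term, and is given with its standard error (SE). The SE rests on the spread left over all 9 arrays after the siRNA and dye terms. It is not the spread of the 3 arrays of siRNA 1. A probe was called at a Benjamini-Hochberg adjusted p under 0.05 over all tested probes. A gene with several probes is represented by its brightest probe. Median signals on arrays 1, 2 and 3 were 484, 506 and 275 intensity units in the knockdown channel and 294, 299 and 341 in the control channel. The percentage of probes without a ratio was 9.49%, 20.3% and 6.64% in the same order. The dye-swapped array stood apart from the others. Across probes, which are not independent replicates, log2 ratios of arrays 1 and 2 correlated at r = 0.686, whereas array 3 correlated with them at 0.207 and 0.204. Among probes at or above the median intensity those coefficients were 0.899, 0.516 and 0.525. The numbers of calls, in all and for each gene list, are therefore also given without array 3.

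The labelled cell type was checked against marker genes. All 10 markers of epithelium and of SKbr3 had signal above local background on all 3 arrays. So did 4 of 6 leukocyte markers, 4 of 5 fibroblast markers and 3 of 4 endothelial markers, but negative control and empty spots passed the same limit in 31.7%, 24.8% and 43.0% of cases on arrays 1 to 3. Against the brighter limit of the 75th percentile of randomised negative control spots, 9 of the 10 epithelial markers and 1 of the other 15, the collagen gene COL1A1, exceeded it on all 3 arrays.

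The targeted transcript was reduced on every array. TRMT12 had log2 ratios of -2.55, -2.73 and -2.65 on arrays 1, 2 and 3, an estimate of -2.62 ± 0.062 (SE, n = 3 arrays), and limma gave an adjusted p of 5.06e-05. The 3 values lay close together in both dye orientations and correspond to 16.3% of the control level. In RNA of whole cultures, less transcript per cell and fewer cells carrying the transcript cannot be told apart. With siRNA 2 and siRNA 3 the estimates were -2.51 and -2.46, and the difference between siRNA 1 and the mean of the others was -0.13 ± 0.074 (SE), with a limma adjusted p of 0.375.

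Of the other 5 measured genes of wybutosine synthesis, TYW3 rose and TRMT5 fell. TYW3, a methyltransferase that acts after TYW2, had ratios of 0.50, 0.58 and 0.75 and an estimate of 0.62. TRMT5 had -0.08, -0.17 and -0.44 and an estimate of -0.27, and it was no longer called with no dye term (limma adjusted p = 0.19) or with array 1, 2 or 3 left out (0.0638, 0.112 and 0.222). The TYW3 estimates with siRNA 2 and 3, 0.74 and 0.53, stood beside that of siRNA 1 with a difference of -0.01. TYW1, TYW5 and LCMT2, the methyltransferase also called TYW4, had estimates of 0.02, 0.15 and -0.19 and were not called.

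In all, 28128 probes were tested, of which 19808 named 14173 genes. With siRNA 1, 3290 probes were called higher, 11.7% of those tested, and 3192 were called lower, 11.3%. Changes of at least 1.5-fold were less balanced, with 800 probes higher (2.84%) and 230 lower (0.818%). By the brightest probe of each named gene, 1681 genes were called higher (11.9%) and 2035 lower (14.4%), and the median estimate of all named genes was -0.02. The share called was larger for bright probes. Among genes whose brightest probe lay at or above the median intensity, 16.0% were called higher and 20.7% lower, against 5.86% and 5.2% among dimmer genes. The limma fit to only the 3 arrays of siRNA 1 called 0 of 26788 probes, with 8968 at an unadjusted p under 0.05 and a smallest adjusted p of 0.0525. Without array 3, 2302 probes were called in place of 6482. The higher share of all calls was 50.8%, and it was 30.8% when arrays were only centred on their medians and 38.8% with the authors' calibrated ratios.

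**Figure D1:**
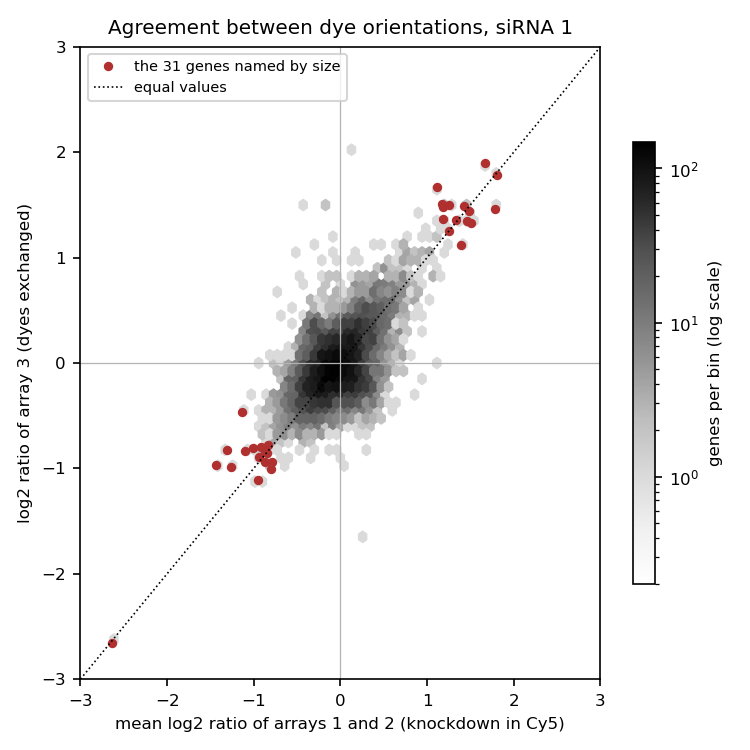
Each hexagon counts named genes by the mean loess-normalised log2 ratio (knockdown over control) of arrays 1 and 2 on the horizontal axis and by that of the dye-swapped array 3 on the vertical axis, for 8388 genes whose brightest probe was not dim, and red points are 31 of the named genes. The named genes, which were chosen for the same sign on all arrays, lie at the upper right and lower left, and TRMT12 lies at the lower left end near -2.65 on array 3.

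The genes below were taken from those with a probe that was not dim, was called and had the same sign on all 3 arrays. Every other tested probe of the gene had to match it in sign, and the brightest probe that passed was used. There were 2805 such genes, 1232 higher and 1573 lower, of which 33 were at least doubled and 5 were at most halved. The 15 highest and 15 lowest are described. The fifteenth highest had an estimate of 1.23 and the next gene 1.22, and the fifteenth lowest had -0.81 and the next gene -0.80. Having been chosen by these values, their sizes are a description.

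HSPA6, an HSP70 chaperone that is made under stress, had log2 ratios of 1.74, 1.89 and 1.79 on arrays 1 to 3 and an estimate of 1.83 ± 0.063 (SE), and its near-identical relatives make the source of this signal uncertain. HMOX1, the heme oxygenase that breaks down heme and is induced by oxidants, had 1.80, 1.78 and 1.47 and an estimate of 1.66 ± 0.057. PPP1R15A, which directs a phosphatase to the translation factor eIF2-alpha, had 1.23, 1.43 and 1.35 and an estimate of 1.33 ± 0.058. All 9 of these values exceeded a doubling, and only HMOX1 was lower on the dye-swapped array than on both others. NIBAN1, which is linked to the endoplasmic reticulum (ER) stress response, had 1.36, 1.60 and 1.45, although its other probe gave 0.18. SSR3, a subunit of the translocon-associated complex of the ER, had 1.13, 1.11 and 1.67, with its highest value on array 3.

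ZNF652, a zinc finger repressor of transcription, had 1.63, 1.71 and 1.90 and an estimate of 1.80 ± 0.054. CYCS, cytochrome c of the respiratory chain, had 1.36, 1.49 and 1.49, and BPNT1, a phosphatase of sulfur and nucleotide metabolism, had 1.35, 1.57 and 1.35. Array 1 was the lowest for CYCS, and array 2 the highest for BPNT1. CSGALNACT2, which starts chondroitin sulfate chains, had 1.44, 1.57 and 1.33, and RND3, which lowers actin contractility, had 1.28, 1.24 and 1.5. SERPINA3, the protease inhibitor alpha-1-antichymotrypsin, had 1.21, 1.14 and 1.51, and ANXA1, the phospholipid-binding annexin A1, had 1.37, 1.41 and 1.12. Array 3 was the highest of the 3 for RND3 and SERPINA3 and the lowest for CSGALNACT2 and ANXA1. FAM107B had 1.25, 1.13 and 1.37, POPDC3, a cAMP-binding membrane protein, had 1.05, 1.33 and 1.48, and DESI2 had 1.23, 1.28 and 1.25 while another of its 3 probes gave 0.13. For the 15 genes the limma adjusted p lay between 6.68e-05 and 0.00113, and the dye-swapped value was closer to 0 than both others in 4 genes and farther from 0 in 7.

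Among the 15 lowest genes, TRIP13, an ATPase that disassembles the spindle checkpoint complex, had -1.02, -1.17 and -0.83 and an estimate of -0.95 ± 0.073. TROAP, a spindle-associated protein, had -0.83, -0.77 and -1.01, and CCNF, the F-box protein cyclin F, had -0.83, -0.90 and -0.84. TCF19, a gene of growing cells, had -1.02, -1.01 and -0.80, and LMNB2, the nuclear lamina protein lamin B2, had -0.87, -0.84 and -0.85. All 15 of these values were below -0.7, with LMNB2 varying least. The other probes of TROAP and LMNB2 gave weaker estimates of -0.30 and -0.47. PDHX, which anchors a subunit of the pyruvate dehydrogenase complex, had -1.21, -1.30 and -0.99 and an estimate of -1.12 ± 0.055. TARS2, the mitochondrial threonyl-tRNA synthetase, had -0.92, -0.98 and -1.11 and an estimate of -1.03 ± 0.046, although its other probe gave -0.48. Array 3 was the least negative for PDHX and the most negative for TARS2.

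MDFIC, which binds and restrains transcription factors, had the lowest estimate of the group at -1.22 ± 0.080, with -1.37, -1.52 and -0.97. EVPL, the desmosomal and cornified envelope protein envoplakin, had -1.26, -1.36 and -0.83, and EYA2, a transcriptional coactivator with phosphatase activity, had -1.08, -1.18 and -0.47. The dye-swapped array gave the weakest reduction for all 3 of these genes, most clearly for EYA2. CTSZ, the lysosomal protease cathepsin Z, had -0.83, -0.91 and -0.94, and TGFB3, a ligand of the TGF-beta family, had -0.76, -0.82 and -0.94. PAK6, a p21-activated kinase, had -0.87, -0.97 and -0.79, MAB21L4 had -1.01, -0.86 and -0.90, and TMEM109, a membrane protein of the ER and nucleus, had -0.73, -0.95 and -0.78. Those 5 genes spread by less than 0.3 over the arrays. The other probe of MAB21L4 gave an estimate of -0.50. Adjusted p for the 15 genes lay between 0.000137 and 0.000967 in limma.

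**Figure D2:**
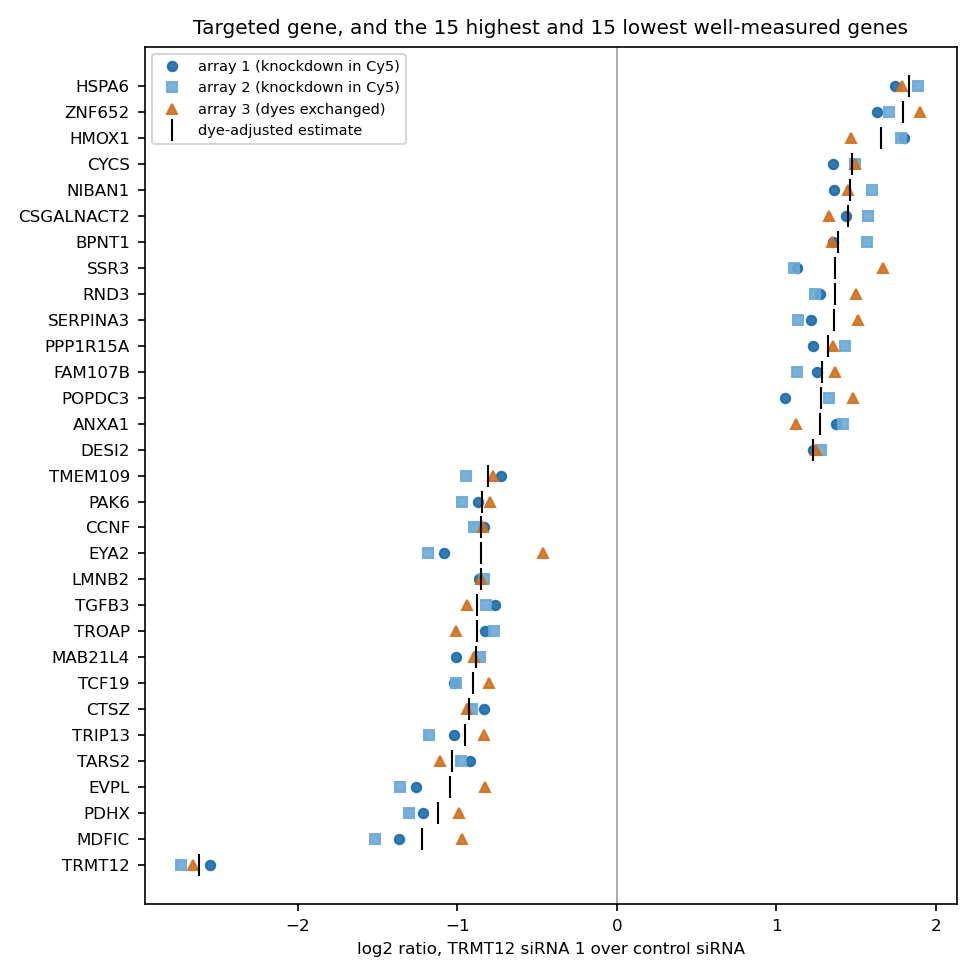
Each row is TRMT12 or one of the 15 highest and 15 lowest genes, and each symbol is its loess-normalised log2 ratio (knockdown over control) on one array of siRNA 1, with triangles for the dye-swapped array and a vertical tick for the limma estimate. Every symbol of the 15 highest genes lies between 1.05 and 1.90, and every symbol of the 15 lowest lies between -1.52 and -0.47.

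Without conditions on brightness or on other probes, the most extreme estimates also came from dim spots with wide spread. RGPD5, of a family of near-identical RANBP2-like genes whose probes may not tell them apart, had 2.21, 1.67 and 3.23 with an estimate of 2.44 ± 0.27, while its other 2 probes reached down to 0.35. IL1RL1, the receptor of interleukin 33, had 1.99, 2.21 and 2.12 with an estimate of 2.14 ± 0.080, but its other probe gave 0.11. SLC7A11, the cystine importer, had 1.75, 3.81 and 1.23, and its brighter probe had 1.08, 1.43 and 1.16. Array 2 held the highest of the SLC7A11 values on both probes. COL5A2, a fibrillar collagen, had -1.68, -2.05 and -1.19 and an estimate of -1.56 ± 0.095. RGS3, a regulator of G-protein signalling, had -1.56, -2.53 and -0.87, with 6 probes between -1.55 and 0.04. LIMD2, a LIM domain protein, had -1.20, -3.01 and -0.41, and SLC38A12 had -1.51, -1.70 and -0.89. All 4 of these lower genes were least negative on the dye-swapped array. LIMD2 was called at an adjusted p of 0.0473 and was no longer called without array 1, without array 3, with median centring or with the authors' ratios, and the SLC7A11 probe lost its call without array 3.

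To set the gene groups beside their promoters, 60 bases are shown from the RefSeq promoter windows of GRCh38.p14, which run from 250 bases before to 50 bases after each gene's start. One or more called genes are shown for each group whose promoters were searched. The promoter of ASPM, a G2 and mitosis gene called higher with an estimate of 0.93, also holds TTTGAA and CCAAT but is not shown. Capitals mark a match on either strand to the motif given on the line, and a match is a description of letters and not of binding. The share of each list's promoters holding a motif, given below, follows from its membership and not from the values with siRNA 1. For G2 and mitosis only TTTGAA is marked, although the KIF4A window also holds attgg, the reverse complement of CCAAT, near its left end.
ATF3, chr1:212565190-212565249, + strand, TGATGNAA: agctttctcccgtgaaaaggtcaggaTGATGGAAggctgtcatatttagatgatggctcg
CHAC1, chr15:40953236-40953295, + strand, TGATGNAA: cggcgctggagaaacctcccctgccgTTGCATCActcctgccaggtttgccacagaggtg
HSPA6, chr1:161524445-161524504, + strand, GAANNTTC: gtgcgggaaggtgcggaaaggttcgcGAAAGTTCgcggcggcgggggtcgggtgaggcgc
CHORDC1, chr11:90223066-90223125, - strand, GAANNTTC: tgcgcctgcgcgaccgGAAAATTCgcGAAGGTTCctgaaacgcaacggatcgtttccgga
TXNRD1, chr12:104215654-104215713, + strand, TGACNNNGC: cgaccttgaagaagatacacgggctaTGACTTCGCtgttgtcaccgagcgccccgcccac
CXCL8, chr4:73740452-73740511, + strand, GGANNTTCC: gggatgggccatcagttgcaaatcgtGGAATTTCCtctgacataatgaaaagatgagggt
CXCL1, chr4:73869289-73869348, + strand, GGANNTTCC: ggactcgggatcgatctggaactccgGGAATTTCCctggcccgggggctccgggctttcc
GINS2, chr16:85688955-85689014, - strand, TTTNNCGC: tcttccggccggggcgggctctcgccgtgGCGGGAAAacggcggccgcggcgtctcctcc
CDT1, chr16:88803728-88803787, + strand, TTTNNCGC: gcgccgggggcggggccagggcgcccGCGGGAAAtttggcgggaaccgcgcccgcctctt
KIF4A, chrX:70290044-70290103, + strand, TTTGAA: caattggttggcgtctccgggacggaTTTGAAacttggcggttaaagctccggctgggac

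Most genes of the integrated stress response list rose. In this response, kinases that sense amino acid shortage, unfolded protein or other stress phosphorylate eIF2-alpha, and the transcription factor ATF4 is then made and turns on its targets. Of 21 measured members of the list of ATF4 and amino acid response genes, 17 were called higher (81.0%) and 0 lower. Among all named genes 11.9% were called higher and 14.4% lower, and among those not dim 16.0% and 20.7%. The list's median estimate was 0.53 against -0.02 for all named genes, with array medians of 0.58, 0.66 and 0.63. DDIT3, the transcription factor CHOP, had 1.06, 0.88 and 1.05 and an estimate of 1.02 ± 0.051. ATF3, a transcription factor downstream of ATF4, had 1.18, 0.81 and 1.05 and an estimate of 1.01 ± 0.076. DDIT4, an inhibitor of mTORC1, had 1.04, 1.10 and 0.85 and an estimate of 0.97 ± 0.041. The 3 genes rose in both dye orientations. CHAC1, which degrades glutathione, had an estimate of 0.79, and GADD45A, a DNA damage and stress gene, 0.86. The 4 members not called were ATF5, JDP2, EIF4EBP1 and FGF21, with estimates of -0.36, -0.06, 0.05 and 0.32. Without array 3, 16 were called higher, and with median centring 11 were. The motif TGATGNAA, the composite element bound by C/EBP and ATF proteins, stood in 3 of 17 members' promoters found in the table against 3.62% of all 35116 promoters. Among called members it stood in 2 of 14.

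Enzymes that make serine, one-carbon units and asparagine were measured for 13 genes, of which 7 were called higher and 1 lower. These are 53.8% and 7.69%, against 16.0% and 20.7% of all named genes that were not dim. The list median was 0.28, and it was 0.08 under median centring and 0.13 for the authors' ratios. CBS, which makes cystathionine, had 0.80, 0.88 and 0.60 and an estimate of 0.74 ± 0.060. ASNS, asparagine synthetase, had 0.86, 0.84 and 0.60 and an estimate of 0.71 ± 0.066. PSAT1, the aminotransferase of serine synthesis, had 0.66, 0.54 and 0.50 and an estimate of 0.55. Array 3 was the lowest for all 3. GPT2, an alanine aminotransferase of the mitochondrion, fell with an estimate of -0.25. ALDH1L2, a one-carbon enzyme measured by a dim probe, had 0.77, 0.96 and 1.81 and was not called. Without array 3, 3 of the 13 were called, all higher.

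Among 20 cytosolic aminoacyl-tRNA synthetases and their cofactors, which charge transfer RNAs, 9 were called higher (45%) and 0 lower with a median of 0.17. Among all named genes that were not dim, 16.0% were called higher and 20.7% lower. TARS1, the cytosolic threonyl enzyme, had 0.59, 0.36 and 0.40 and an estimate of 0.43, and SARS1, the seryl enzyme, had 0.50, 0.58 and 0.27 and an estimate of 0.39. VARS1, the valyl enzyme, had the lowest estimate at -0.36 and was not called. FARSA and FARSB, which charge the phenylalanine transfer RNA that carries wybutosine, had estimates of -0.18 and -0.08 and were not called. The direction of this group depended on scaling, since with median centring 0 were called higher and 3 lower, and the median was -0.03. The authors' ratios gave 2 higher and 4 lower, and without array 3 there were 3 higher and 0 lower. Of 9 amino acid transporters, 3 were called higher and 1 lower, 33.3% and 11.1% against the same background shares. SLC38A2, a carrier of small neutral amino acids, had 1.05, 1.06 and 0.79 and an estimate of 0.93 ± 0.042, and SLC3A2, the heavy chain that pairs with SLC7A5 and SLC7A11, had an estimate of 0.35. SLC7A5, the carrier of large neutral amino acids, fell with -0.31, -0.25 and -0.80.

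ER chaperones and unfolded protein response genes, 21 in number, had 12 called higher (57.1%) and 0 lower with a median of 0.26. Among all named genes that were not dim, 16.0% were called higher and 20.7% lower. DNAJB9, a co-chaperone of the ER, had 1.04, 0.95 and 0.97 and an estimate of 0.97 ± 0.055. DNAJC3, which inhibits eIF2-alpha kinases, had 0.79, 0.74 and 1.19, and HSPA5, the main HSP70 of the ER, had 0.53, 0.51 and 0.72. DNAJB9 varied least over the arrays, and DNAJC3 and HSPA5 were highest on array 3. SEL1L, of the degradation complex of the ER membrane, had an estimate of 0.96. XBP1, the transcription factor whose messenger RNA is spliced in ER stress, had 0.19, 0.27 and -0.29 and was not called, and the ER calcium-binding chaperones CALR and CANX had 0.02 and 0.11. Without array 3, 5 of the 21 were called, and with median centring 4, with a list median of 0.05.

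Cytosolic heat shock genes were called higher in 9 of 19 cases (47.4%) and lower in 0, with a median of 0.12. Among all named genes that were not dim, 16.0% were called higher and 20.7% lower. Beside HSPA6, DNAJB4 had 1.04, 0.95 and 1.23 and an estimate of 1.10, and BAG3, a partner of HSP70, had 1.06, 1.06 and 0.81 and an estimate of 0.94. CHORDC1, a partner of HSP90, had 0.78, 0.66 and 0.41 and an estimate of 0.58. All 9 values of these genes were above 0.4. The constitutive chaperones HSPA8 and HSP90AB1 had -0.23, -0.31 and 0.45, and -0.08, -0.10 and 0.26, so their sign followed the dye orientation, and neither was called. The list median was -0.05 with median centring, under which 5 were called higher and 1 lower. Without array 3, 6 were called higher. The motif GAANNTTC, a pair of heat shock element units, stood in 5 of 17 promoters against 6.77% of all, and in 3 of 8 among called members.

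Genes of the NRF2 oxidative stress response were called higher in 9 of 21 cases and lower in 2, shares of 42.9% and 9.52% against 11.9% and 14.4% of all named genes, with a median of 0.18. Median centring gave 4 higher and a median of 0.03, the authors' ratios 5 higher, and 5 were called higher without array 3. After HMOX1, the highest was ABCC2, an export pump, with 0.59, 0.78 and 0.60 and an estimate of 0.68. OSGIN1, an oxidative stress induced growth inhibitor, had 0.50, 0.51 and 0.56 and an estimate of 0.57. GCLC, the catalytic subunit of glutathione synthesis, had 0.21, 0.15 and 0.79, so its estimate of 0.48 rested on array 3. GSR, glutathione reductase, fell with an estimate of -0.22. PRDX1 and TXN, the abundant peroxiredoxin and thioredoxin, changed sign with the dye orientation and had estimates of -0.00 and 0.06. The motif TGACNNNGC, the antioxidant response element, stood in 3 of 15 promoters against 13.4% of all, and in 1 of 7 among called members. TXNRD1, whose window is shown, had an estimate of 0.26.

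Inflammatory cytokines and adhesion molecules had a median of 0.96 over 15 measured genes, with array medians of 0.39, 1.03 and 0.88. With spots of quality under 0.5 left out, 5 of the genes had a value, and their median was 0.33. Of the 15 genes 7 were called higher and 0 lower, and 4 higher without array 3, but 11 of the 15 were measured by dim probes. The 7 are 46.7%, against 11.9% called higher among all named genes and 5.86% among dim ones. None of the 15 was brighter than the 95th percentile of randomised negative control spots, and over those brighter than the 75th percentile the median was 0.59. CXCL8, the neutrophil chemokine interleukin 8, had 1.52, 2.10 and 1.96 and an estimate of 2.01 ± 0.30. CXCL1, a related chemokine, had 1.03, 1.82 and 1.83 and an estimate of 1.54 ± 0.42. CCL2, a monocyte chemokine whose probe was not dim, had 0.99, 1.03 and 1.28 and an estimate of 1.15 ± 0.054. All of these values were near or above a doubling, and CCL2 had the smallest error. CCL20 and CXCL3, further chemokines, had estimates of 1.15 and 1.00. ICAM1, an adhesion molecule, had 0.92, 1.91 and 1.26 and TNF had 0.39, 2.70 and 1.19, and neither was called. The kappaB motif GGANNTTCC, which NF-kB proteins bind, stood in 8 of 12 promoters against 4.57% of all, and in 4 of 5 among called members.

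NF-kB subunits and feedback genes were called higher in 9 of 18 cases (50%) and lower in 0, with a median of 0.36. Among all named genes 11.9% were called higher and 14.4% lower, and among those not dim 16.0% and 20.7%. CYLD, a deubiquitinase that restrains the pathway, had 0.57, 0.67 and 0.67 and an estimate of 0.63 ± 0.053. TNFAIP3, the feedback inhibitor A20, had 0.68, 0.50 and 0.63 and an estimate of 0.60, and NFKBIA, the inhibitor IkB-alpha, had 0.80, 0.74 and 0.33 and an estimate of 0.56. RELA, the p65 subunit, was measured by a dim probe and had 0.62, 0.56 and 3.44, so that array 3 set its estimate of 1.74 ± 0.40. Without array 3, 7 of the 18 were called. Of 24 interferon-stimulated genes, 6 were called higher and 0 lower, and the 25% called higher is set against the same background shares. They were led by the transcription factor IRF1 with 0.59, 0.63 and 0.64 and the exonuclease gene ISG20 with an estimate of 0.51. EIF2AK2, the kinase PKR that binds double-stranded RNA, had 0.24, 0.34 and 0.29. The lowest member, IFIT2, was measured by a dim probe with no ratio on array 1, -2.96 on array 2 and 0.57 on array 3, and its estimate of -1.19 was not called.

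Immediate early and MAPK feedback genes were called higher in 12 of 28 cases (42.9%) and lower in 0, with a median of 0.19. Among all named genes 11.9% were called higher and 14.4% lower, and among those not dim 16.0% and 20.7%. FOS, a subunit of AP-1, had 0.58, 0.99 and 1.36 and an estimate of 1.04, from a dim probe. AREG, the EGF receptor ligand amphiregulin, had 0.86, 0.93 and 1.02 and an estimate of 0.97, and EGR1, a zinc finger transcription factor, had 0.82, 1.00 and 0.99 and an estimate of 0.94. DUSP5 and DUSP1, phosphatases of MAP kinases, had estimates of 0.79 and 0.67, while DUSP4 and DUSP6, of the same family, had 0.01 and -0.06 and were not called. Without array 3, 9 were called, and with median centring 10. p53 target genes were called higher in 6 of 22 cases and lower in 2, 27.3% and 9.09% against the same background shares. GDF15, a stress cytokine of the TGF-beta family, had 0.92, 0.90 and 1.17, and PLK2 and BBC3, a kinase and a BH3-only death protein, had estimates of 0.94 and 0.76. SESN1 and ZMAT3 of the same list fell, with -0.41 and -0.31.

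Most of the genes of DNA replication and the G1/S transition fell. Of 36 measured, 20 were called lower (55.6%) and 0 higher, with a median of -0.30 and array medians of -0.27, -0.31 and -0.27. Among all named genes that were not dim, 20.7% were called lower and 16.0% higher. CCNE1, cyclin E1, had -0.67, -0.69 and -0.87 and an estimate of -0.76 ± 0.053. MCM10, a replication initiation factor, had -0.74, -1.08 and -0.48 and an estimate of -0.70 ± 0.11. TK1, thymidine kinase, had -0.26, -0.36 and -0.90 and an estimate of -0.60 ± 0.044. The dye-swapped value was the most negative for CCNE1 and TK1 and the least negative for MCM10. GINS2 and CDT1, which act with the replicative helicase at origins, had estimates of -0.51 and -0.47. RRM2, a ribonucleotide reductase subunit, had -0.50. CDC6, MCM4 and MCM7, which also act at origins, had -0.01, -0.04 and -0.08 and were not called. Without array 3, 10 were called lower. The E2F motif TTTNNCGC stood in 19 of 31 promoters against 6.89% of all, and in 11 of 19 among called members.

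Genes of G2 and mitosis were called lower in 29 of 39 cases and higher in 2. These are 74.4% and 5.13%, against 20.7% lower and 16.0% higher among all named genes that were not dim. The list median was -0.33, with array medians of -0.35, -0.34 and -0.29. KIF4A, a chromosome-associated motor, had -0.81, -1.05 and -0.56 and an estimate of -0.76 ± 0.091. CDC25B, a phosphatase that activates CDK1, had -0.63, -0.71 and -0.60 and an estimate of -0.62 ± 0.062. AURKA, the spindle kinase Aurora A, had -0.65, -0.52 and -0.56 and an estimate of -0.57 ± 0.051. The 3 genes fell on every array. UBE2C, PTTG1, BIRC5 and FOXM1, which act in mitotic protein destruction, chromatid cohesion, chromosome attachment and mitotic transcription, had estimates between -0.52 and -0.47. The 2 members called higher were ASPM, a spindle pole protein measured by a dim probe, with 0.66, 1.02 and 1.00, and TOP2A, topoisomerase II-alpha, with 0.21, 0.18 and 0.28. TOP2A had estimates of 0.63 and -0.53 with siRNA 2 and 3. Without array 3, 15 were called lower and 1 higher. The CCAAT box, bound by NF-Y, stood in 27 of 33 promoters against 34.6% of all, and TTTGAA, the core of the cell cycle homology region, in 22 of 33 against 15.2%. Among called members the counts were 21 of 26 for CCAAT and 16 of 26 for TTTGAA.

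**Figure D3:**
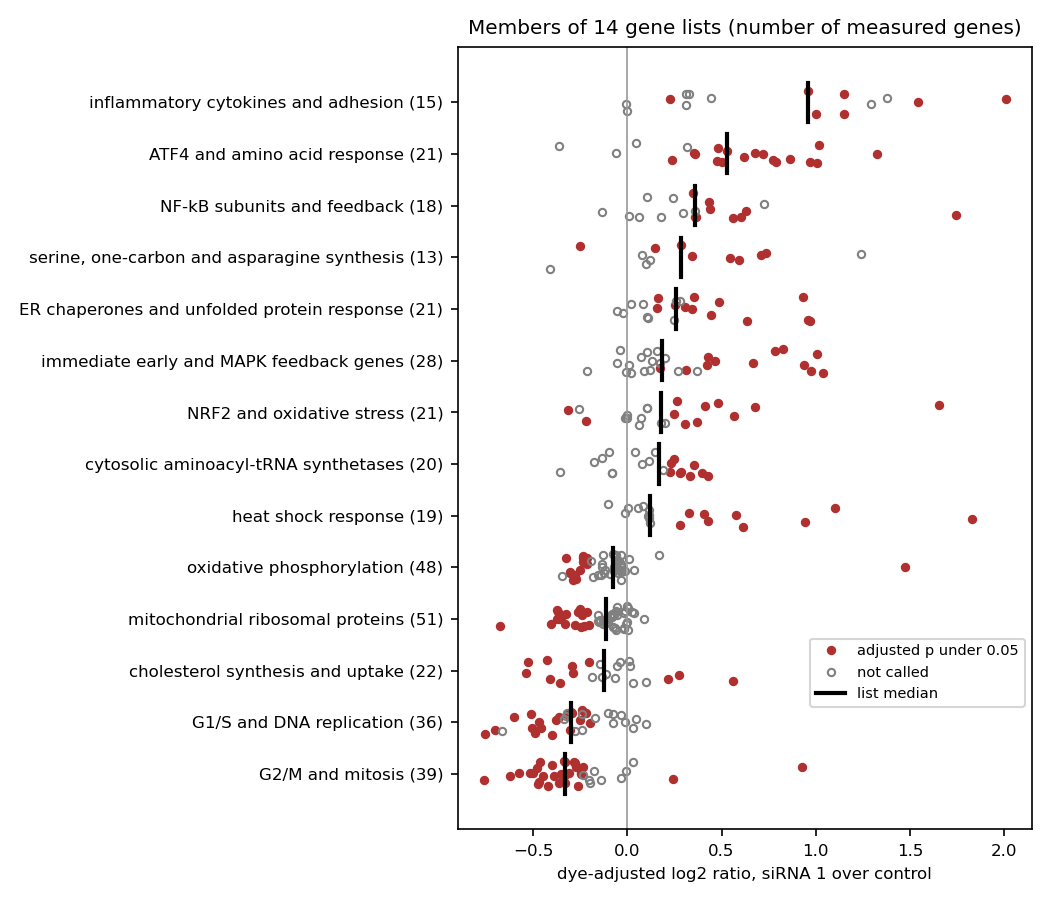
Each point is a measured gene of 1 of 14 lists, placed by its dye-adjusted log2 estimate (siRNA 1 over control), filled where the limma adjusted p was under 0.05, and the vertical bar is the list median. The medians run from 0.96 for inflammatory genes down to -0.33 for genes of G2 and mitosis, and in the 2 cell cycle lists nearly all filled points lie to the left of 0.

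Of 51 mitochondrial ribosomal proteins, 17 were called lower and 0 higher, with a median of -0.11. These are 33.3% lower, against 20.7% lower and 16.0% higher among all named genes that were not dim. MRPS28 had -0.54, -0.46 and -0.84 and an estimate of -0.68 ± 0.047, the lowest of the list, and MRPS33 had -0.27, -0.43 and -0.39. MRPS27 had -0.70, -0.76 and 0.05, so that its call rested on arrays 1 and 2. Of 48 genes of oxidative phosphorylation, 12 were called lower, with estimates no lower than -0.32, and 1, CYCS, was called higher. The 25% called lower lies near the 20.7% of all named genes that were not dim. SDHA and SDHD of complex II had estimates of -0.30 and -0.28, and the list median was -0.07. Without array 3, 4 mitochondrial ribosomal protein genes and 0 genes of oxidative phosphorylation were called lower in limma. Median centring gave 21 and 16, with list medians of -0.29 each.

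Cytosolic ribosomal proteins, in contrast, showed 1 call among 67 genes, RPL7A with -0.31, and a median of 0.01. Their array medians of -0.25, -0.31 and 0.31 changed sign with the dye orientation, and the sign of the list's median changed with median centring, the authors' ratios, no dye term and without array 1. Of 37 ribosome biogenesis genes, 6 were called higher and 6 lower, 16.2% each, which lies near the 16.0% and 20.7% of all named genes that were not dim. NOP58 and GNL3, nucleolar proteins, had estimates of 0.38 each, and UBTF, which activates RNA polymerase I, had -0.42.

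Of 22 genes of cholesterol synthesis and uptake, 8 were called lower and 3 higher, 36.4% and 13.6% against 20.7% and 16.0% of all named genes that were not dim, with a median of -0.12. Median centring gave 11 lower and 0 higher with a median of -0.27, and without array 3 there were 5 lower and 0 higher. DHCR7 and TM7SF2, sterol reductases, had -0.74, -0.71 and -0.31, and -0.79, -0.69 and -0.32, and both were least negative on array 3. STARD4, a sterol carrier, rose with an estimate of 0.56. Of 20 genes of fatty acid synthesis, 5 were called lower and 0 higher, and 2 lower without array 3. The 25% called lower lies near the 20.7% of all named genes that were not dim. Those called included SREBF1, the transcription factor of lipid synthesis, with -0.48, -0.46 and -0.64.

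Among hypoxia and glycolysis genes, 7 of 30 were called higher and 3 lower. These are 23.3% and 10%, against 16.0% and 20.7% of all named genes that were not dim. ADM, the vasodilator peptide adrenomedullin, had 0.57, 0.74 and 1.09, and KDM3A, a histone demethylase, had 0.47, 0.66 and 0.85. PFKFB4 and PGAM1, of glycolysis, fell with estimates of -0.37 and -0.27. Genes of apoptosis were called higher in 9 of 25 cases and lower in 3, 36% and 12% against the same background shares. CASP4, an inflammatory caspase, had 1.42, 1.66 and 1.13 from a dim probe. BCL2L11, the BH3-only protein BIM, fell with -0.47, -0.56 and -0.51.

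The next 4 lists had calls near or below the shares of all named genes, 11.9% higher and 14.4% lower (16.0% and 20.7% of those not dim). Of 16 genes of the ERBB2 amplicon, 2 were called higher and 3 lower, 12.5% and 18.8%. ERBB2 itself had -0.36, -0.39 and -0.43 with an estimate of -0.33 ± 0.12 that was not called (limma adjusted p = 0.0916). CDK12, a transcriptional kinase of the amplicon, fell with -0.57, -0.70 and -0.49. Luminal epithelial markers had 3 of 24 called higher and 5 lower, 12.5% and 20.8%. Their estimates were above 0 for 13 genes and below 0 for 11, with a median of 0.01 and a highest value of 0.30. GATA3, the luminal transcription factor, had -0.70, -0.82 and -0.31, and the mucin MUC1 had an estimate of -0.48. Basal and mesenchymal markers had 2 of 15 called in each direction, with 6 estimates above 0 and 9 below and a median of -0.003. The hyaluronan receptor CD44 of this list rose with 0.60, 0.78 and 0.96. Stromal, endothelial and blood markers had 1 of 13 called, COL1A1 with -0.37.

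Collagens and matrix genes were called higher in 7 of 31 cases and lower in 8, 22.6% and 25.8% against 11.9% and 14.4% of all named genes, with 15 measured by dim probes. PLAU, the urokinase plasminogen activator, had 1.15, 1.15 and 0.86 and an estimate of 1.02 ± 0.048, and LAMB1, a laminin chain, had -0.47, -0.47 and -0.43. Desmosome and cornified envelope genes were called higher in 5 of 19 cases and lower in 4. These are 26.3% and 21.1%, against 16.0% and 20.7% of all named genes that were not dim. DSG2, desmoglein 2, had 0.65, 0.60 and 0.78, opposite to EVPL. Lysosome and autophagy genes had 5 of 29 called higher and 8 lower, 17.2% and 27.6% against 16.0% and 20.7% of all named genes that were not dim, and 1 and 9 with median centring. MAP1LC3B and GABARAPL1, proteins of the autophagosome membrane, rose with 0.49 and 0.43, whereas PSAP, a precursor of lysosomal activator proteins, fell with -0.43. Proteasome subunits had 4 of 35 called in each direction, 11.4%, which is below the shares of all named genes, PSMD12 being highest with 0.62, 0.84 and 0.71. RNA interference genes had 3 of 16 called higher and 5 lower, 18.75% and 31.25% against the same 16.0% and 20.7%. AGO2, the slicing Argonaute, had 0.34, 0.32 and 0.38, and DROSHA, which cuts primary microRNAs, had -0.20, -0.16 and -0.46.

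Without array 3 of siRNA 1, the calls in the lists not yet given that way were fewer in most cases. Numbers higher and lower were then 1 and 1 for wybutosine synthesis, 2 and 1 for amino acid transporters, 5 and 1 for interferon-stimulated genes, and 6 and 1 for p53 targets. They were 0 and 0 for cytosolic ribosomal proteins, 0 and 1 for ribosome biogenesis, 5 and 0 for hypoxia and glycolysis, and 6 and 2 for apoptosis. The lists of cell identity gave 0 and 2 for the ERBB2 amplicon, 1 and 1 for luminal markers, 1 and 0 for basal markers, and 0 and 1 for stromal markers. The others gave 1 and 6 for collagens and matrix, 3 and 1 for desmosome genes, 1 and 2 for lysosome and autophagy, 3 and 1 for the proteasome, and 0 and 0 for RNA interference.

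Finally, siRNA 1 was set against the other siRNAs within the same limma fit, as the difference between its estimate and the mean of those of siRNA 2 and siRNA 3. This contrast called 1211 probes, 658 higher and 553 lower, with 5799 at an unadjusted p under 0.05. By brightest probe, 2.66% of named genes were called higher and 2.69% lower. The count depended strongly on the processing, and was 2 with median centring and 147 without the dye term. By list, 14 of the 21 ATF4 genes, 9 of the 28 immediate early genes and 5 of the 18 NF-kB genes were called higher in this contrast. So were 5 of 19 heat shock genes, 6 of 24 interferon-stimulated genes, 5 of 22 p53 targets, 6 of 25 apoptosis genes, 3 of 13 serine and one-carbon genes, and 3 of 9 amino acid transporters. Of the 39 genes of G2 and mitosis, 10 were called lower. The ATF4 list had a median of 0.53 with siRNA 1, 0.23 with siRNA 2 and 0.03 with siRNA 3. The G1/S list had -0.30, -0.25 and -0.18, and the G2 and mitosis list -0.33, -0.18 and 0.03. Any shared control RNA would enter all 3 sets of values.

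Of the 2805 genes above, 505 were called in the contrast, and the 8 with the highest and the 8 with the lowest difference are given. HMOX1 had estimates of 1.66, 0.46 and 0.22 with siRNA 1, 2 and 3, a difference of 1.32 ± 0.069 (SE). HSPA6 had 1.83, 0.83 and 0.32, a difference of 1.25 ± 0.076. CCL2 had 1.15, -0.02 and 0.13, a difference of 1.10 ± 0.064. The first 2 genes were positive with all siRNAs, whereas CCL2 was near 0 with the others. ZFX, a zinc finger transcription factor, had 1.18, 0.29 and -0.53, and SWAP70, a regulator of Rac and the actin skeleton, had 0.60, -0.40 and -0.50. ADM had 0.87, 0.13 and -0.27, and PLAU had 1.02, -0.01 and 0.24. CLIP1, which binds growing microtubule ends, had 1.07, 0.29 and 0.02, although its other probe gave 0.05 with siRNA 1.

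On the lower side, MDFIC had -1.22, 0.38 and 0.32 with siRNA 1, 2 and 3, a difference of -1.58 ± 0.096. PDHX had -1.12, -0.03 and 0.34, a difference of -1.27 ± 0.067. TARS2 had -1.03, -0.13 and -0.25, a difference of -0.84 ± 0.055, although its other probe gave a difference of -0.40. For MDFIC the other siRNAs gave values of the opposite sign. KIF14, a mitotic kinesin, had -0.64, 0.30 and 0.33, and ELOVL4, an elongase of very long fatty acids, had -0.51, 0.22 and 0.55. GSTA4, a glutathione transferase that removes lipid peroxidation products, had -0.68, 0.11 and 0.20. DEPDC1 had -0.52, 0.06 and 0.54, and REEP5, which shapes ER tubules, had -0.46, 0.20 and 0.44. No difference of these 16 genes changed sign under any alternative that gave a value, but with median centring only MDFIC and PDHX passed, each at a limma adjusted p of 0.0152, and the others lay between 0.0556 and 0.0616. Without array 3 of siRNA 1, 12 of the 16 passed.

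**Figure D4:**
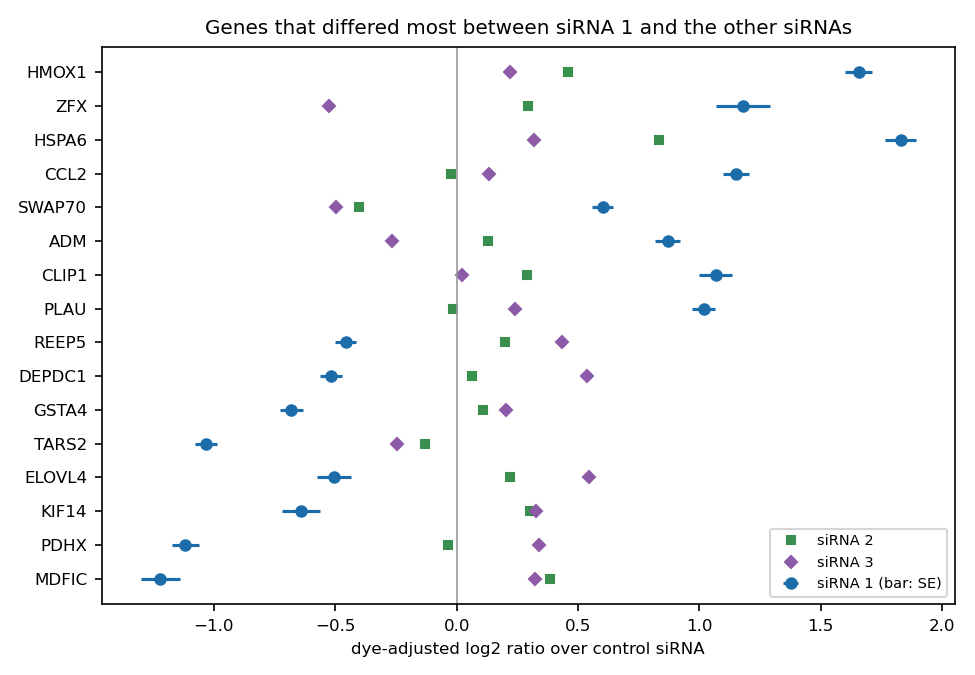
For the 16 genes of this contrast, symbols show the log2 estimates (knockdown over control) with siRNA 1 (circles with SE), 2 (squares) and 3 (diamonds), ordered by the difference between siRNA 1 and the mean of the others. The circles lie to the right of both other symbols in the 8 upper genes and to their left in the 8 lower ones, which were chosen for this.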

How the data were processed

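RNA of SKbr3 cells was amplified with a T7 primer, labelled with Cy dyes and hybridised to spotted 35k oligonucleotide arrays, per the labels' protocols. Per the file headers and values, the authors deposited a background-subtracted mean intensity per spot and channel, the background, its SD, a spot quality fraction from 0 to 1, and a calibrated ratio, which is knockdown over control divided by a factor per array (1.60, 1.64 and 0.785). The authors' further deposited table held log2 of that ratio for arrays 1 and 2 and, within a tolerance of 0.001, minus that value for array 3. Its column medians were -0.0578, -0.103 and -0.154. The series text states that the dye-swapped columns had already been exchanged, so each per-array ratio is knockdown over control. For the image program and the genome build, nothing is given in the sources used here.

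The planned design assumed uncorrected intensities, but the deposited ones were already background-subtracted, so no further correction was made. Spots at the intensity floor of 1 had no ratio. Log2 ratios were normalised within arrays by loess (span 0.3) with control spots at weight 0. Probes needed signal over 2 background SDs in at least 1 channel on at least 6 of the 9 arrays, and for each siRNA a ratio with either dye orientation, which left 28128 of 34772 probes. limma 3.58.1 (R 4.3.3) fitted all 9 arrays with a term per siRNA and a dye term. The procedure was also run on simulated data, but the outcome is not given here and no result rests on it. A dim probe had a mean log2 intensity under the median of 8.64. The median SE was 0.0596 for brighter and 0.126 for dim probes, and the number of arrays limits the precision. Of the probes, 21568 were named by a current symbol, 177 through an old symbol and 2144 through an accession, 1025 named several genes, 171 had sources that differ and 9687 were unnamed here, and only singly named probes were used for genes. Among 4177 genes with several probes, 1721 had probes of both signs and 38 were called both ways. The dye term was called for 8206 probes.

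Members and lists were chosen with earlier results of these data known. Genes were named by rule: TRMT12; the 15 highest and lowest among bright, called probes of one sign on all arrays and with no other probe of opposite sign; the 6 highest and lowest called probes of one sign on all arrays; in each list, members among the 3 highest and 3 lowest, not all of which are described; and the 8 highest and lowest called differences between siRNA 1 and the others. Further list members were chosen after their values were seen. Some list members are not reported here. Promoters were matched by symbol. Alternatives covered centring, normexp, scaling, filters, the dye term and leaving out arrays. The 2 negative control limits and 1 form of normexp were added after seeing the data.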

Additional observations from a re-analysis of the deposited data

Results flagged for a closer look

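Among genes named for the size of an estimate or difference, 35 differed between siRNA 1 and the mean of siRNA 2 and siRNA 3. Each was taken by the probe for which it was named. Their adjusted p in the limma contrast lay between 0.00268 and 0.0365. Genes named only as list members were not counted here. Control RNA shared by the siRNAs would cancel in this contrast, whereas differences between separate control RNAs would enter it. The part of the controls was not tested. Of the genes named for a high estimate, the log2 difference was 1.25 for HSPA6, 0.65 for ZNF652, 1.32 for HMOX1, 0.824 for NIBAN1, 0.505 for BPNT1, 0.76 for SSR3, 0.518 for RND3 and 0.826 for SERPINA3. It was 0.805 for PPP1R15A, 0.878 for FAM107B, 0.679 for ANXA1, 0.439 for DESI2, 2.44 for the uncertain RGPD5 probe and 1.52 for IL1RL1. For RGPD5 and IL1RL1 these came from dim probes. The brightest RGPD5 probe gave a difference of the opposite sign, -0.332 (limma adjusted p = 0.0366). The brighter IL1RL1 probe gave 0.0080 (limma adjusted p = 0.965) and did not differ. Of the genes named for a low estimate, it was -1.58 for MDFIC, -1.27 for PDHX, -0.845 for TARS2, -0.658 for TRIP13, -0.707 for TROAP and -0.61 for TGFB3. It was -0.404 for CCNF, -0.4 for PAK6, -0.53 for TMEM109 and -1.37 for COL5A2.

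Of the genes named for the difference itself, it was 1.29 for ZFX, 1.1 for CCL2, 1.05 for SWAP70, 0.938 for ADM, 0.912 for CLIP1 and 0.906 for PLAU. On the lower side it was -0.957 for KIF14, -0.888 for ELOVL4, -0.836 for GSTA4, -0.817 for DEPDC1 and -0.774 for REEP5. These genes were chosen for large differences, so their sizes are a description.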

How the results depend on the processing

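Calls with siRNA 1 numbered 6482 (3290 higher, 3192 lower). Without the dye term there were 3395 (1871 and 1524), and leaving out 1 array at a time gave 2302 to 4022 (1405 to 2227 higher, 897 to 1795 lower). With only the 3 arrays of siRNA 1 limma called 0 in either direction, with 8968 at an unadjusted p under 0.05. Median centring gave 5022 calls with 1546 higher. Probes brighter than the 95th percentile of randomised negative control spots gave 1262 calls among 2883 tested (568 higher, 694 lower). That limit was chosen after seeing the data, and since a bright subset of those spots set it, the 75th percentile was run afterwards and gave 7178 among 15749. Calls stayed within 1.5 times of 6482 with the authors' ratios (5956), scale normalisation (7048), signal required of both channels on every array (7204) and a quality of at least 0.5 (7885), and the need for a ratio in both dye orientations left the same probes with or without the filter on dim signal. Normexp as planned, over all spots, collapsed to its offset on 3 of 18 channels and called 45 probes, with TRMT12 at -1.83 (adjusted p 0.102). Refitted over spots with a ratio, a repair chosen after that failure, it called 7156, with TRMT12 at -2.48.

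The difference between siRNA 1 and the others was called for 1211 probes. It was called for 2 with median centring, 224 with the authors' ratios, 147 with no dye term, 2279 with both channels required, 2824 with the quality limit, 656 and 3137 with the 95th and 75th percentile limits, and 30 to 90 leaving out 1 array at a time. The cause of these changes was not tested. TRMT12 was -2.65 with only 3 arrays (adjusted p 0.0525) and, apart from normexp over all spots, -2.73 to -2.48 and still called wherever else it was tested. It was dimmer than the 95th percentile limit and has no value there. Of the other 49 genes named for the size of an estimate or difference, none changed sign where it was tested. Genes named only as list members were not part of this check. All 49 lost their call with only 3 arrays, LIMD2 also with median centring, the authors' ratios, no dye term and without array 1 or 3, SLC7A11 and ELOVL4 without array 3, and SWAP70 with no dye term.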
